A study of Arabidopsis thaliana with 6 samples.

Results

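The genes described here encode proteins of the cytosolic ribosome of Arabidopsis thaliana. They were chosen by name, as 60 gene identifiers whose products belong to 25 protein families of the large and the small ribosomal subunit, and all 60 are among the 33602 genes of the deposited table. The large subunit accounts for 14 families with 32 genes and the small subunit for 11 families with 28 genes. In 23 families 2 or more of the chosen genes, called paralogues here, encode the same protein or a close variant of it. The rule itself uses no measured value.

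Polyadenylated RNA was sequenced from whole roots of seedlings aged 8 days, of the ecotype Col-0 in the wild type. The 6 deposited columns comprise the phl2 mutant on phosphate-deficient medium (phl2 P-, replicates 5 and 6), the wild type on deficient medium (WT P-, replicates 3 and 4) and the wild type on phosphate-sufficient medium (WT P+, replicates 1 and 2). PHL2 is a relative of PHR1, the MYB protein that switches on many genes in starved plants, and the study asked which responses to starvation need it. The kind of phl2 allele, the length of starvation and the number of plants behind a library are not stated in the labels, and phl2 roots with phosphate were not analysed here.

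Each cytosolic ribosome holds 1 copy of nearly every ribosomal protein, so the genes of all families are transcribed in rough proportion, most strongly in dividing and growing cells. In plants each protein comes from a small family of paralogues that together supply it, and the TOR kinase pathway, which includes the kinases that phosphorylate RPS6, raises ribosome production when nutrients allow. Ribosomal RNA holds a large part of the phosphorus bound in organic form in a cell. Promoters of plant ribosomal protein genes are known to carry a telo-box, a short sequence that resembles the telomere repeat, and site II elements, which TCP transcription factors bind.

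These elements are shown for 2 of the 4 genes called in the comparison of WT P- with WT P+, for the most strongly expressed gene and for the gene with the lowest change in that comparison. Each line gives the bases just before the annotated gene start in the TAIR10.1 genome (RefSeq), written 5′ to 3′ on the strand of the gene. Capitals mark the telo-box AAACCCTA and site II (TGGGCC or TGGGCT) in either orientation. Up to 250 bases are shown, fewer where an exon of another gene lies nearer.
RPL13a AT5G48760, chr5:19772790-19772843, reverse strand: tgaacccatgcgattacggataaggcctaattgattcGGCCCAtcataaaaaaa
RPL12 AT5G60670, chr5:24381600-24381849, reverse strand: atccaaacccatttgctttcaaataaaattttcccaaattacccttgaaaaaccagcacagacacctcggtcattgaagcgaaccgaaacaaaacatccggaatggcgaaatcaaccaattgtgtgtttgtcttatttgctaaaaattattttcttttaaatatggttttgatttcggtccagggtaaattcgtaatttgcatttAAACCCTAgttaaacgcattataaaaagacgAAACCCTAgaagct
RPL9 AT1G33140, chr1:12022975-12023224, forward strand: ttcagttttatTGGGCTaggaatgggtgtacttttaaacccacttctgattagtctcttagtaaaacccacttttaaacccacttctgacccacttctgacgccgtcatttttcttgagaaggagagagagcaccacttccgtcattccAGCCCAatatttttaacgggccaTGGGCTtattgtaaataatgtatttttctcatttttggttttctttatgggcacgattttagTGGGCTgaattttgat
RPL14 AT4G27090, chr4:13595253-13595457, reverse strand: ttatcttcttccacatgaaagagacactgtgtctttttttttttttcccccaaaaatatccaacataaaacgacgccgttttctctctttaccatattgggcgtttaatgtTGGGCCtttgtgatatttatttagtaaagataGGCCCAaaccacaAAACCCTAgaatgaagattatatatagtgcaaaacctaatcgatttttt

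The line of RPL13a AT5G48760 ends after 54 bases for that reason. RPL12 AT5G60670 carried 2 telo-boxes and RPL9 AT1G33140 carried 4 site II matches in the bases shown. Promoters were read as windows from 250 bases before to 50 after the gene start. A telo-box was held by 37 of the 60 promoters (61.7%), against 6.2% of 27443 promoters of all annotated nuclear protein-coding genes. Site II was found in 48 (80.0%), against 21.7% of all promoters. Both motifs together occurred in 31 (51.7%), against 2.2%, and 6 promoters (10.0%) held neither, against 74.3%. The 6 include those of RPL13 AT3G48960, which was listed at 0 in every column, RPS10 AT5G52650, RPS13A and RPS14 AT3G11510. Large-subunit promoters held site II in 28 of 32 (87.5%), and small-subunit promoters in 20 of 28 (71.4%).

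The 91 other cytosolic ribosomal protein genes held a telo-box in 39.6% and site II in 73.6%, and 18 ribosome assembly factors held each in 72.2%. Of 16 nuclear genes for plastid ribosomal proteins, 25% held a telo-box and 43.8% site II. P1BS (GNATATNC), the sequence bound by PHR1, occurred in 4 of the 60 promoters (6.7%), those of RPL10 AT1G14320, RPL13 AT3G49010, RPL13 AT5G23900 and RPS14 AT3G52580, against 6.3% of all promoters. All motifs were sought on both strands, overlapping matches were counted separately, and a match is a run of letters, not a measured binding site.

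**Figure D1:**
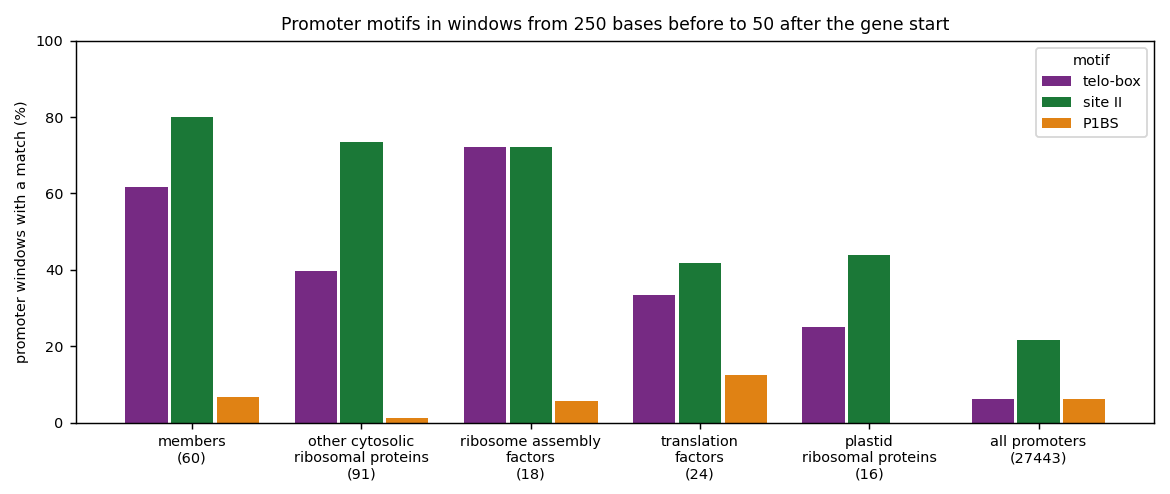
Share of promoter windows (y axis, %) with a telo-box, site II or P1BS match, with the number of windows below each label. Shown are the 60 genes described here (members), 4 other gene lists and all annotated nuclear protein-coding genes. The members stood at 61.7%, 80.0% and 6.7%, and all promoters at 6.2%, 21.7% and 6.3%.

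Values are RPKM, reads scaled to gene length and library total, as the authors deposited them. Each column had 20607 to 21900 genes above 0. The library total behind the RPKM was estimated at 12680000 and 10970000 reads in the phl2 columns, 9940000 and 10780000 reads in WT P-, and 9330000 and 9900000 reads in WT P+. All genes of the table together accounted for 5.44% to 9.07% of these totals. A tested gene of this set rests on about 1 to 339 reads per library, with a median of 56. The libraries keep the strand of the RNA by the dUTP method, and which strand was counted is not given in the sources used here. If it was the opposite one, the values would rest on residual reads of the genes, and this was not tested. The 2 phl2 columns held equal reads in 17207 of 21237 genes (81.0%) once a constant ratio of 1.156 was divided out (within a relative tolerance of 0.001), and in 49 of the 59 members above 0. The other 10 members were lower in replicate 6 once that ratio was divided out. Since the 2 columns differed by less than the sampling noise, they were counted as 1 sample, their mean. PHL2 itself (AT3G24120) had 1.04 and 0.93 RPKM in the phl2 columns, 2.14 and 2.24 RPKM in WT P- and 1.65 and 2.37 RPKM in WT P+. Rescaled, it had 1.27 RPKM in the phl2 sample, 1.57 and 1.83 RPKM in WT P-, and 1.66 and 2.85 RPKM in WT P+, a change of -0.25 ± 0.24 in phl2 P- against WT P- (limma, adjusted p = 0.62), and as deposited the change was -0.68 ± 0.22 (adjusted p = 0.055).

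The genes summed to 271.1 and 312.1 RPKM in the phl2 columns, 498.2 and 423.3 RPKM in WT P- and 303.8 and 278.1 RPKM in WT P+. Their share of the summed RPKM of the whole table was 0.80% and 0.86% in phl2 P-, 0.96% and 0.87% in WT P-, and 0.72% in both WT P+ libraries. The WT P- libraries were thus the highest on the deposited scale, and both WT P+ libraries had the lowest share. Most of the 11463 tested genes moved in the same direction. Their median log2 change of RPKM + 1 was 0.33 between WT P- and WT P+ and -0.48 between phl2 P- and WT P-. The counts of called genes are therefore given as deposited and rescaled, that is, with each library divided by its median ratio to the geometric mean of all libraries. After rescaling, the genes summed to 376.3 RPKM in the phl2 sample, 366.6 and 346.0 RPKM in WT P-, and 305.7 and 334.6 RPKM in WT P+.

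**Figure D2:**
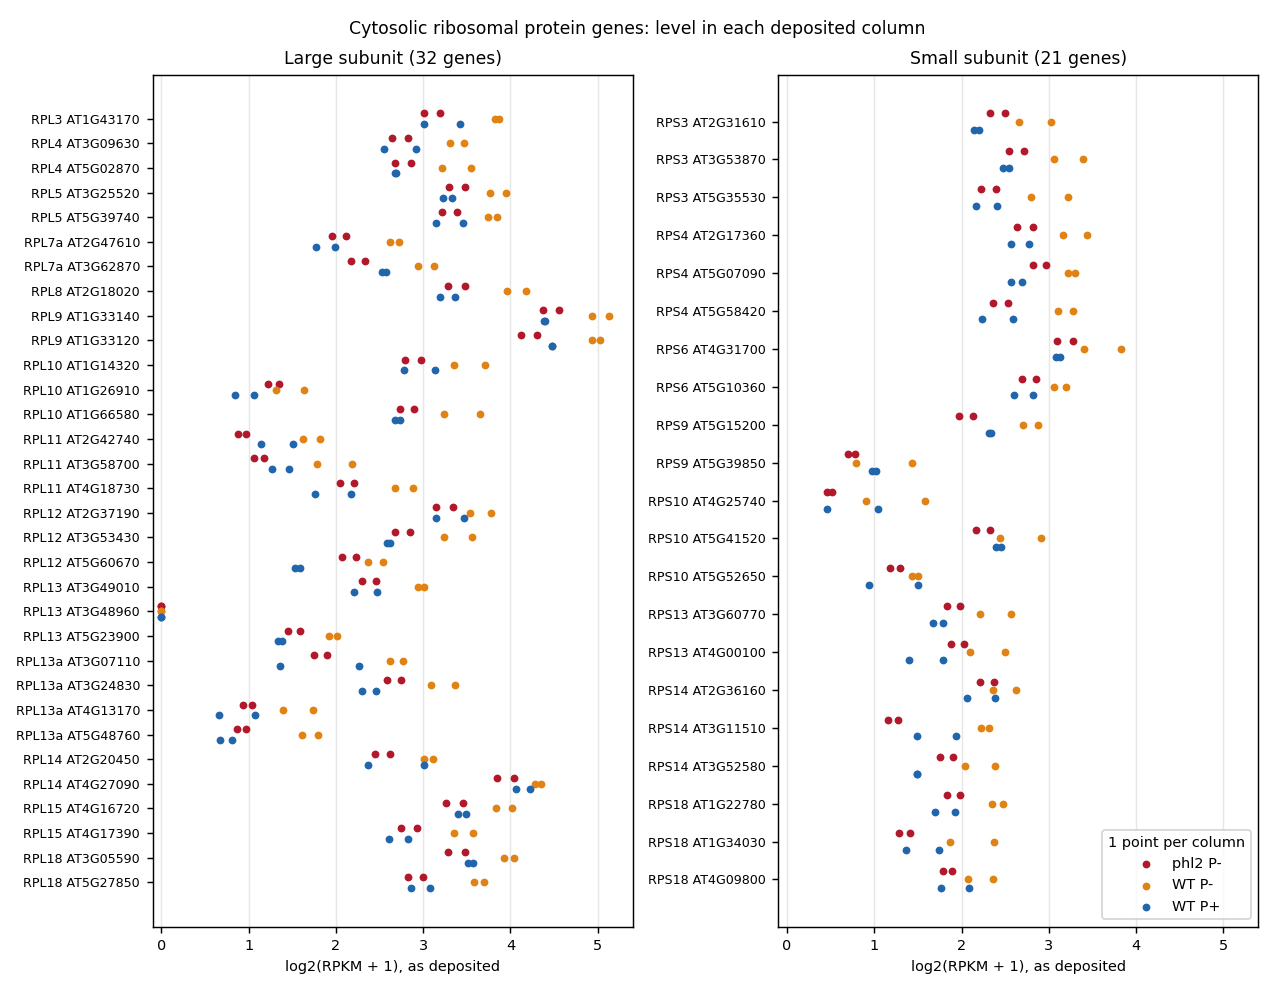
Level of 53 of the 60 genes (rows, by family) as log2(RPKM + 1) on the deposited scale (x axis), with 1 point per column for phl2 P-, WT P- and WT P+. The RPL9 pair lies farthest right, RPL13 AT3G48960 lies at 0 in all 6 columns, and WT P- points lie to the right of WT P+ points in most rows.

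Genes that reached 1 RPKM in 2 or more columns were tested, and 58 of the 60 did. RPL13 AT3G48960 was listed at 0 in every column. The tested members had a median level of 5.22 RPKM over the 5 samples, against 1.83 RPKM over all tested genes, and 49 of 58 lay above the median tested gene.

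The highest level was that of RPL9, a protein of the large subunit. PGY2 (AT1G33140, chr1:12023225-12024783, forward strand), known for its effect on leaf shape, had 19.8 and 22.6 RPKM in phl2 P-, 34.1 and 29.7 RPKM in WT P-, and 19.9 and 20.1 RPKM in WT P+. Its neighbour AT1G33120 (chr1:12010879-12012547) had 16.4 and 18.8 RPKM in phl2 P-, 31.6 and 29.6 RPKM in WT P-, and 21.2 and 21.3 RPKM in WT P+. Each copy supplied between 45.4% and 54.6% of the pair in every sample. The next were RPL14 AT4G27090, RPL18 AT3G05590 and the only RPL8 gene of the set, AT2G18020, at mean levels of 17.1, 12.1 and 11.7 RPKM. Among the lowest stood RPS10 AT4G25740 (0.94 RPKM), RPS9 AT5G39850 (1.02 RPKM), RPL13a AT4G13170 (1.33 RPKM) and RPL13a AT5G48760 (1.35 RPKM).

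Reads can be divided between paralogues only where their sequences differ. The 48 pairs of paralogues in the set had a median protein identity of 94.5% and a median coding identity of 85.6%. In 5 pairs the proteins were identical, and among these the coding sequences were 99.15% identical for RPL9 and 85.43% to 91.07% for the RPL11 and RPS18 pairs. For 2 of these pairs, the stretch of 90 coding bases within 1 exon that differs most is shown 5′ to 3′ (TAIR10.1), with the differing bases in capitals.
RPL9 AT1G33140, chr1:12023922-12024011, forward strand: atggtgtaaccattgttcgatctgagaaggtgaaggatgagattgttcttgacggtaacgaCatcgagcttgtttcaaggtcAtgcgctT
RPL9 AT1G33120, chr1:12011548-12011637, forward strand: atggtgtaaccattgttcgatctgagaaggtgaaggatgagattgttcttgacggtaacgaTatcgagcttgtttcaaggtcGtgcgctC
RPS18 AT1G22780, chr1:8068603-8068692, forward strand: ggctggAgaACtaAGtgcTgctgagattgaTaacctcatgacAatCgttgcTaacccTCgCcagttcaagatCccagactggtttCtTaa
RPS18 AT1G34030, chr1:12370591-12370680, reverse strand: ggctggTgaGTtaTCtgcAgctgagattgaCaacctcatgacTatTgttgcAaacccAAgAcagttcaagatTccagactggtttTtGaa

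The RPL9 copies differ at 5 of 585 coding bases, 3 of them in the stretch shown, and the 2 RPS18 copies at 59 of 459, 16 of them shown. As far as coding reads go, the values of the RPL9 copies are therefore uncertain as single genes and firmer as a sum. The sum was 36.2 and 41.4 RPKM in phl2 P-, 65.7 and 59.3 RPKM in WT P-, and 41.1 and 41.4 RPKM in WT P+. The exons of the 2 copies span 1001 and 1016 bases, and their sequence outside the coding bases was not compared. No other pair had a coding identity over 92.72%.

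Within families, the shares of the paralogues ranged from nearly equal to mostly from 1 copy. RPS9 came from AT5G15200 for 78.8% to 88.3% of its summed RPKM, and RPL14 from AT4G27090 for 70.6% to 79.0%. In families of 3 or more, the leading copies were RPL13 AT3G49010 (69.3% to 73.9%), RPS10B AT5G41520 (62.8% to 69.2%), RPL11 AT4G18730 (39.9% to 61.9%), RPL13a AT3G24830 (44.0% to 58.9%), RPL12 AT2G37190 (44.9% to 59.5%) and RPL10 AT1G14320 (46.1% to 54.4%). RPS14 AT2G36160 (37.9% to 50.2%), RPS3 AT3G53870 (38.0% to 39.8%), RPS4 AT5G07090 (31.2% to 39.0%) and RPS18 AT1G22780 (31.6% to 41.1%) led by less. For RPS4 and RPS18 the lead is that of the mean over samples: AT2G17360 was above AT5G07090 in WT P- replicate 3 and WT P+ replicate 1, and AT4G09800 above AT1G22780 in WT P+ replicate 2. RPL4 and RPL5 were split nearly evenly, with AT3G09630 at 47.3% to 54.9% of RPL4 and AT3G25520 at 45.6% to 53.5% of RPL5.

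In WT P- against WT P+, after rescaling, 4 of the 58 tested genes rose (6.9%, against 8.1% of all tested genes), and 0 fell, against 11.7% of all tested genes (limma, adjusted p under 0.05, two-sided). At an unadjusted p under 0.05 by limma, 10 were higher and 1 was lower, against 1802 and 2226 of the 11463 tested genes. Of the 4, 2 had passed the filter on low values only through the WT P- libraries, so they could hardly have been called in the other direction. The middle of the set lay higher, with a median log2 change of 0.21 against 0.00 over all tested genes, and 47 of the 58 changes were above 0. In 33 (56.9%, against 32.0% of all tested genes) both WT P- libraries lay above both WT P+ libraries, and in 4 (6.9%, against 31.1%) both lay below, among them RPL14 AT4G27090, RPS6 AT5G10360 and RPS14 AT2G36160. On the deposited scale 42 rose (72.4%, against 28.0%) and 0 fell (against 4.45%), with a median change of 0.62 against 0.33. All 58 changes were then above 0, and in 51 (87.9%, against 62.1%) both WT P- libraries lay above both WT P+ libraries, with 0 below (against 11.5%). By limma at an unadjusted p under 0.05, 46 were higher and 0 lower, against 4772 and 729 of the 11463 tested genes. Without WT P- replicate 3 or 4, which leaves 1 library in that group, assumed to vary like the others, the rescaled count is 0, while 254 and 286 of all tested genes rose in place of 928. The changes themselves were then 0.61 and 0.68 for RPL13a AT5G48760 (0.66 with all libraries) and 0.47 and 0.52 for RPL12 AT5G60670 (0.50 with all libraries), and RPL12 AT5G60670 also lost its call without WT P+ replicate 1 (0.44, adjusted p = 0.053). The deposited count of 42 was lower without WT P+ replicate 2, WT P- replicate 3 or WT P- replicate 4, and so was the share over all tested genes (28.0% with all libraries). Without WT P+ replicate 1 the member count was also lower, but that share was not. Each of these fits leaves 1 library in a wild-type group. Members lie higher in RPKM than most tested genes, and the level a gene has bears on whether a change is called.

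**Figure D3:**
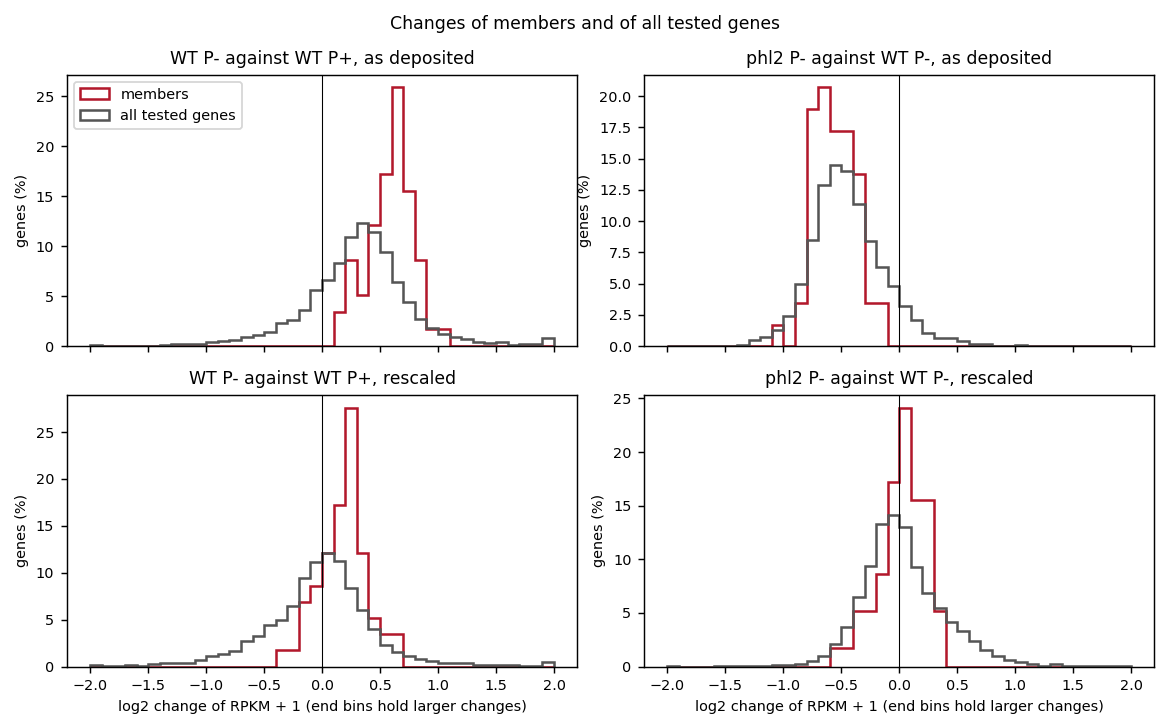
Percent of genes (y axis) by log2 change of RPKM + 1 (x axis), for the 58 tested members and all 11463 tested genes, as deposited (top) and rescaled (bottom), with WT P- against WT P+ at the left and phl2 P- against WT P- at the right. Members lie right of all genes at the left (median 0.21 against 0.00 rescaled), and at the right the rescaled medians are 0.03 and -0.01.

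The 4 called genes come from 4 families, and those of RPL13a and RPL12 are described. RPL13a, a large-subunit protein that in mammals also takes part in translational silencing, is encoded by 4 of the genes. Its copy AT5G48760 (chr5:19771099-19772789, reverse strand) had 0.83 and 0.96 RPKM in phl2 P-, 2.46 and 2.05 RPKM in WT P-, and 0.75 and 0.59 RPKM in WT P+. Its rescaled log2 change was 0.66 ± 0.12 (SE, adjusted p = 0.014). The other RPL13a copies did not pass the test, with changes of 0.49 ± 0.23 (AT3G07110), 0.42 ± 0.19 (AT4G13170) and 0.41 ± 0.11 (AT3G24830, adjusted p = 0.051). RPL13a as a sum reached 14.1 and 13.9 rescaled RPKM in WT P-, against 10.2 and 8.00 rescaled RPKM in WT P+, a ratio of 1.54.

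RPL12 AT5G60670 (chr5:24380504-24381599, reverse strand), a protein at the base of the stalk where elongation factors bind, had 3.20 and 3.70 RPKM in phl2 P-, 4.81 and 4.16 RPKM in WT P-, and 2.02 and 1.90 RPKM in WT P+. It rose by 0.50 ± 0.12 (adjusted p = 0.029). Its share of the family was 17.0% and 18.0% in WT P- and 13.4% and 11.2% in WT P+, while AT2G37190 supplied 44.9% and 45.6% in WT P- and 52.4% and 59.5% in WT P+. RPL13a AT5G48760 is 1 of the 2 called genes that passed the filter only through the WT P- libraries. In all 4 called genes both WT P- libraries lay above both WT P+ libraries, which the call itself nearly implies, so it adds nothing to the call.

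The lowest change was that of RPL14 AT4G27090 (chr4:13593844-13595252, reverse strand). It had 13.4 and 15.5 RPKM in phl2 P-, 19.4 and 18.4 RPKM in WT P-, and 17.6 and 15.7 RPKM in WT P+, a rescaled change of -0.30 ± 0.12 (adjusted p = 0.12). Among the next lowest were RPS10B (-0.17 ± 0.16), RPS9 AT5G39850 (-0.15 ± 0.19) and RPS14 AT2G36160 (-0.14 ± 0.12). All 4 of these values were above 0 on the deposited scale, from 0.12 to 0.27, so their direction depends on the scaling.

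By family, 21 of the 25 sums were higher in WT P- than in WT P+ after rescaling, with a median ratio of 1.14 and a lowest of 0.84 (RPL14). On the deposited scale RPL14 was not lower, with sums of 26.5 and 26.1 RPKM in WT P- and 24.7 and 19.9 RPKM in WT P+. In 16 families both WT P- libraries were above both WT P+ libraries and in 2 both were below. Among single tested genes these shares were 32.0% and 31.1%. No share was computed for sums of other genes, so the family counts have no background. Among large-subunit proteins, RPL11 and RPL8 had ratios of 1.29 and 1.28, and RPL11 with RPL5 carries the smallest ribosomal RNA into the ribosome. RPL5 had 1.05 and RPL9 1.06. Among small-subunit proteins, RPS13 had 1.32 and RPS3, at the mRNA entry, 1.26, while RPS6, the substrate of the kinases under TOR, had 1.01. The tested large-subunit genes had a median change of 0.22 and the small-subunit genes one of 0.19, with 2 called genes each.

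**Figure D4:**
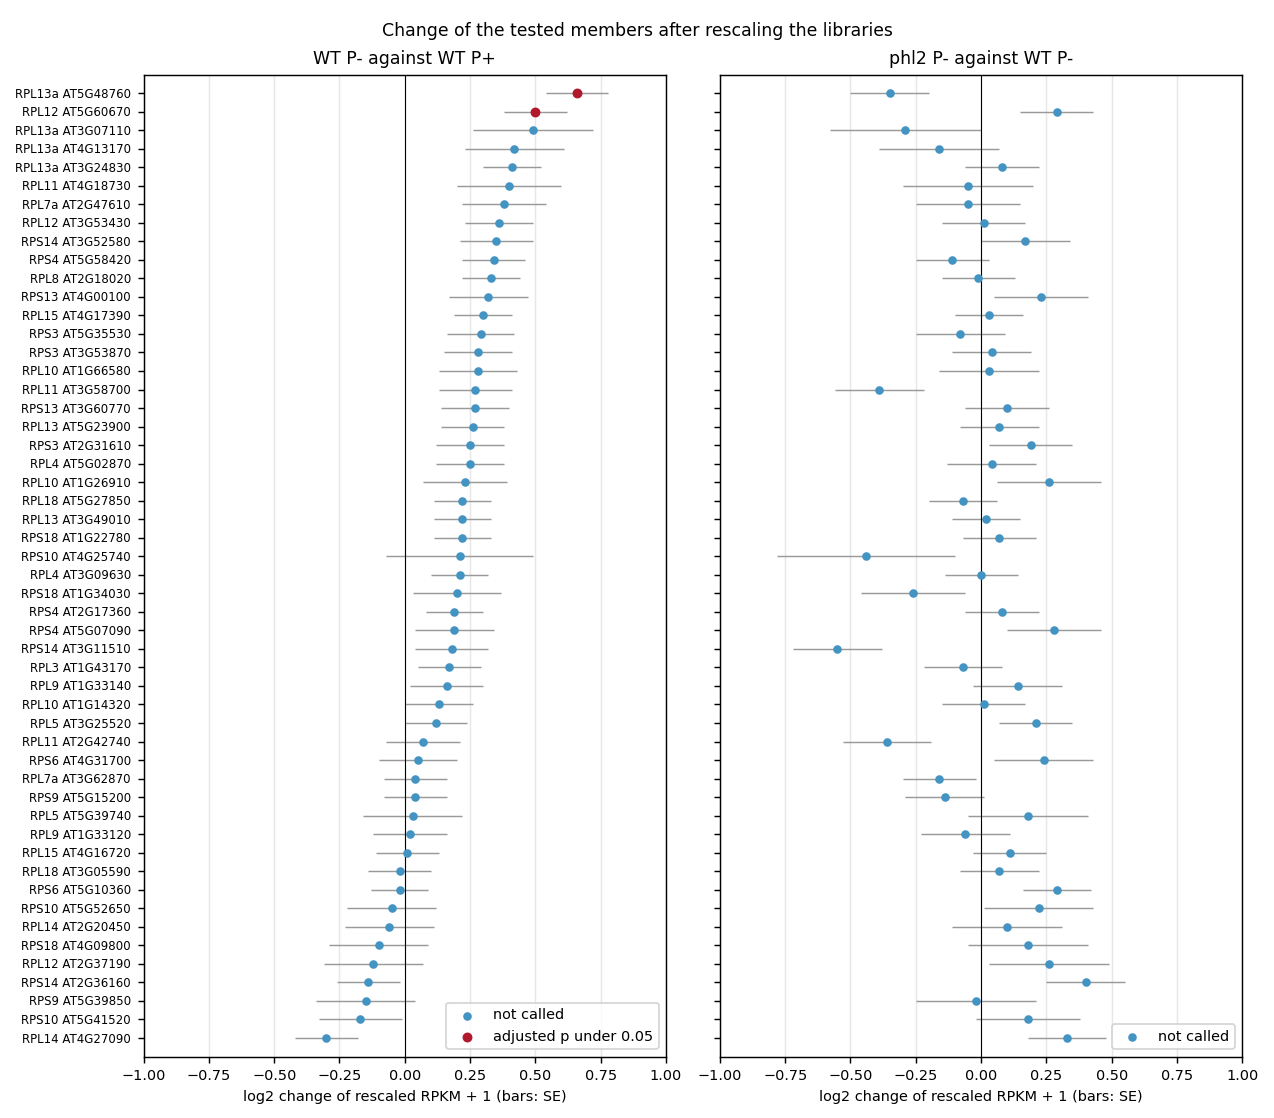
Rescaled log2 change of RPKM + 1 (x axis) with its SE for 52 of the 58 tested genes (rows, ordered by the left panel), in WT P- against WT P+ (left) and phl2 P- against WT P- (right). Red points have an adjusted p under 0.05: there are 2 at the left and 0 at the right.

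In phl2 P- against WT P-, after rescaling, 0 of the 58 genes rose (against 0.0698% of all tested genes) and 0 fell (against 0.0174%). At an unadjusted p under 0.05 by limma, 2 were higher and 1 was lower, against 1353 and 816 of the 11463 tested genes. The smallest adjusted p of a member was 0.18. The changes ranged from -0.55 to 0.40 with a median of 0.03, against -0.01 over all tested genes and a median SE of 0.16. On the deposited scale 0 rose (against 0.288%) and 17 fell (29.3%, against 19.5%), with a median of -0.57 against -0.48. By limma at an unadjusted p under 0.05, 0 were higher and 39 lower there, against 103 and 5456 of the 11463 tested genes. The count of 17 was lower without WT P- replicate 3, without WT P- replicate 4 and with phl2 replicate 6 alone, and higher with phl2 replicate 5 alone. The share over all tested genes moved in the same direction each time. The single phl2 sample gives no spread, and limma took that of the wild-type libraries in its place. A p that misses the threshold does not show that the genotypes were alike.

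The lowest change was that of RPS14 AT3G11510, one of 3 copies of a protein of the platform of the small subunit. It had 1.23 and 1.42 RPKM in the phl2 columns, 3.98 and 3.67 RPKM in WT P-, and 2.83 and 1.82 RPKM in WT P+. Its rescaled change in phl2 P- was -0.55 ± 0.17 (adjusted p = 0.18), and on the deposited scale it fell by 1.05 (adjusted p = 0.040). The copy AT2G36160 had the highest rescaled change, 0.40 ± 0.15, with 3.63 and 4.19 RPKM in phl2 P- and 5.16 and 4.14 RPKM in WT P-. AT3G11510 thus made up 17.0% of RPS14 in phl2 P-, against 29.8% and 33.6% in WT P- and 31.9% and 26.6% in WT P+, and the sum of the family had a ratio of 1.07 between phl2 P- and WT P-.

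RPL11 showed the lowest family ratio between phl2 P- and WT P-, 0.81, with AT3G58700 at -0.39 ± 0.17 and AT2G42740 at -0.36 ± 0.17. RPS10 AT4G25740 was at -0.44 ± 0.34 and RPL13a AT5G48760 at -0.35 ± 0.15. Among the next highest were RPL14 AT4G27090 at 0.33 ± 0.15, RPS6 AT5G10360 at 0.29 ± 0.13 and RPL12 AT5G60670 at 0.29 ± 0.14. None of these passed the test after rescaling. On the deposited scale all were below 0, and RPL13a AT5G48760 (adjusted p = 0.043), RPL11 AT3G58700 (adjusted p = 0.044) and RPL11 AT2G42740 (adjusted p = 0.048) fell by limma, by 0.78, 0.86 and 0.80 on the log2 scale. Over families the median ratio was 1.04, 18 of 25 were above 1, and RPL14 and RPS6 were highest at 1.22. No share was computed for sums of other genes here either. The WT P- libraries serve in both comparisons, so the 2 sets of changes share them and are given side by side only.

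Reads from the opposite strand could enter a gene if strand was not used in counting. Exons of 10 members lie opposite exons of another gene, over 0.2% to 54.2% of their length, and 50 have none. The share of 54.2% belongs to RPL13a AT4G13170, which lies opposite AT4G13160. AT4G13160 had 0.35 and 0.41 RPKM in phl2 P-, 1.36 and 1.17 RPKM in WT P-, and 1.16 and 1.18 RPKM in WT P+. AT4G13170 had 0.91 and 1.05 RPKM in phl2 P-, 1.62 and 2.34 RPKM in WT P-, and 1.11 and 0.58 RPKM in WT P+. Whether reads of either gene entered the value of the other was not tested. The median rescaled change in WT P- was 0.26 for the 10 members and 0.20 for the tested members with none.

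The other genes of the machinery were compared on the same scales. Of 85 other tested cytosolic ribosomal protein genes, 3 (3.5%) rose in WT P- and 0 fell after rescaling, against 8.1% and 11.7% of all tested genes, with a median change of 0.09. At an unadjusted p under 0.05, 13 were higher and 0 lower by limma, against 1802 and 2226 of all 11463 tested genes. The 3 were the RPS16 copy AT3G04230 (0.91 ± 0.13, adjusted p = 0.0065), RPSa P40 (0.44 ± 0.11, adjusted p = 0.034) and RPS2 XW6 (0.50 ± 0.12, adjusted p = 0.035). Of these, AT3G04230 had 0.63 and 0.45 RPKM in WT P+ and passed the filter on low values through columns on deficient medium. On the deposited scale 43 of the 85 rose (50.6%, against 28.0% of all tested genes). Of 16 ribosome assembly factors, NOP56, a core protein of box C/D particles, rose by 0.43 ± 0.11 (adjusted p = 0.041) and AT3G15460, a Brix domain protein, fell by 0.59 on the log2 scale (adjusted p = 0.026). Of 24 translation factors, 1 rose: EIF4A-2, an initiation helicase, had 6.06 and 5.17 RPKM in WT P- and 2.36 and 2.05 RPKM in WT P+, a change of 0.65 ± 0.11 (adjusted p = 0.012). The elongation factor genes AT1G07920 and AT1G07930 had rescaled changes of 0.45 ± 0.16 and 0.46 ± 0.16 and did not pass the test. As deposited both rose, by 0.95 ± 0.11 (adjusted p = 0.00089) and 0.96 ± 0.10 (adjusted p = 0.00063). On that scale 13 of the 24 translation factors (54.2%) and 6 of the 16 assembly factors (37.5%) rose and 0 fell, against 28.0% and 4.45% of all tested genes.

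Of 5 tested genes of TOR signalling, 2 rose in WT P- after rescaling (against 8.1% of all tested genes) and 0 fell, and 3 rose as deposited (against 28.0%). S6K2, a kinase that phosphorylates RPS6, had 2.26 and 2.61 RPKM in phl2 P-, 5.09 and 4.20 RPKM in WT P-, and 1.74 and 1.44 RPKM in WT P+, a rescaled change of 0.74 ± 0.12 in WT P- (adjusted p = 0.008). TAP46, a phosphatase-associated protein downstream of TOR, rose by 0.50 ± 0.13 (adjusted p = 0.043). It had 0.97 and 0.91 RPKM in WT P+ and passed the filter on low values through columns on deficient medium. Of 11 tested genes for plastid ribosomal proteins, 0 rose and 4 fell after rescaling (36.4%, against 11.7% of all tested genes), with a median change of -0.48. PRPS20 fell by 0.89 (adjusted p = 0.018), EMB3113 by 0.71 (adjusted p = 0.01), the plastid RPL15 by 0.48 (adjusted p = 0.042) and EMB3126 by 0.47 (adjusted p = 0.048) on the log2 scale. On the deposited scale limma called 0 of the 11, and their median was -0.18. At an unadjusted p under 0.05 by limma, 0 were higher and 2 lower, against 4772 and 729 of all 11463 tested genes. In phl2 P- against WT P-, limma called 0 genes of each of these lists after rescaling. At an unadjusted p under 0.05 there were 9 higher and 3 lower among the other ribosomal protein genes, 3 and 0 among assembly factors, 1 and 2 among translation factors, 0 and 0 in TOR signalling, and 1 and 1 among plastid ribosomal proteins. Over all 11463 tested genes, 1353 were higher and 816 lower. As deposited, 0 rose, and those that fell in phl2 P- were 18 of the 85 other ribosomal protein genes (21.2%), 2 of the 16 assembly factors (12.5%), 13 of the 24 translation factors (54.2%), 1 of the 5 TOR signalling genes and 1 of the 11 plastid ribosomal protein genes, against 19.5% of all tested genes.

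**Figure D5:**
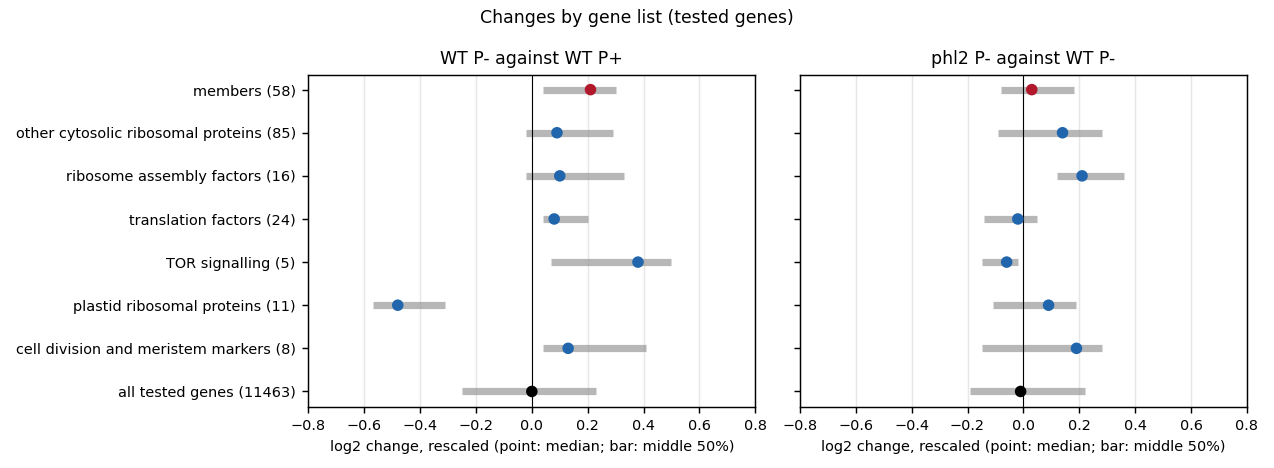
Median (points) and middle 50% (bars) of rescaled log2 changes (x axis) for the members, 6 other gene lists and all tested genes, with the number of tested genes in brackets, in WT P- against WT P+ (left) and phl2 P- against WT P- (right). At the left the members stood at 0.21 and plastid ribosomal proteins at -0.48.

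Summed levels of marker genes differed between the groups. The 16 markers of cell division and the meristem summed to 13.3 and 15.3 RPKM in phl2 P-, 21.9 and 19.8 RPKM in WT P-, and 12.8 and 11 RPKM in WT P+ as deposited. The rescaled sums were 18.4 RPKM in phl2 P-, 16.1 and 16.2 RPKM in WT P-, and 12.8 and 13.2 RPKM in WT P+, so the order of phl2 P- and WT P- depends on the scaling. As deposited, 3 of the 8 tested rose in WT P- and 0 fell, against 28.0% and 4.45% of all tested genes (limma). After rescaling, 2 of the 8 tested rose in WT P- and 0 fell, against 8.1% and 11.7% of all tested genes (limma). PCNA1, the sliding clamp of DNA replication, rose by 0.74 ± 0.13 (adjusted p = 0.013). CDC20.1, an activator of the anaphase-promoting complex, rose by 0.66 ± 0.14 (adjusted p = 0.02). Both were under 1 RPKM in both WT P+ libraries and passed the filter through columns on deficient medium. Of the 8 changes, 6 were above 0 and 2 below, TSO2 (-0.14 ± 0.13) and CYCD3;1 (-0.07 ± 0.13). The 9 root markers summed to 18.8 and 21.6 RPKM in phl2 P-, 47.0 and 40.2 RPKM in WT P-, and 19.2 and 15.5 RPKM in WT P+ as deposited, and they include the phosphate transporter gene PHT1;1. Rescaled, they summed to 26.1 RPKM in phl2 P-, 34.6 and 32.8 RPKM in WT P-, and 19.3 and 18.7 RPKM in WT P+. PHT1;1 alone had 12.8 RPKM in phl2 P-, 21.8 and 20.6 RPKM in WT P-, and 6.11 and 5.20 RPKM in WT P+ after rescaling. It made up most of the WT P- sums, so the order of the sums does not describe the other root markers. As deposited, 4 of the 7 tested rose in WT P- and 1 fell, against 28.0% and 4.45% of all tested genes. After rescaling, 2 of the 7 tested rose in WT P- and 1 fell, against 8.1% and 11.7% of all tested genes. The 1 that fell was the iron transporter gene IRT1, which was listed at 0 in the phl2 P- and WT P- columns. The 9 shoot photosynthesis markers were not at 0 in any column and summed to 7.20 and 8.30 RPKM in phl2 P-, 22.3 and 17.5 RPKM in WT P-, and 30.7 and 26.1 RPKM in WT P+ as deposited. Rescaled, the sums were 10.0 RPKM in phl2 P-, 16.4 and 14.3 RPKM in WT P-, and 30.8 and 31.4 RPKM in WT P+. Of the 8 tested, 0 rose and 5 fell in WT P- after rescaling, against 8.1% and 11.7% of all tested genes. As deposited, 0 rose and 4 fell, against 28.0% and 4.45%. For phl2 P- against WT P-, limma called 0 genes of each marker list after rescaling, against 0.0698% higher and 0.0174% lower. On the deposited scale 0 rose there, against 0.288%. Those that fell were 1 of the 8 division markers, 3 of the 7 root markers and 4 of the 8 photosynthesis markers, against 19.5%. The part of these markers in the changes of the ribosomal protein genes was not tested. In whole roots, fewer cells of a type and less RNA per cell cannot be told apart.

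Changes of members with and without the promoter motifs were close. The median rescaled change in WT P- was 0.21 in 37 members with a telo-box and 0.22 in 21 without. It was 0.20 in 48 members with site II and 0.27 in 10 without. The median level was 6.13 RPKM with site II and 3.17 RPKM without, and 5.23 and 5.20 RPKM with and without a telo-box.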

How the data were processed

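RPKM values of 33602 genes in 6 columns were deposited by the authors as 1 table. Per the submitters' processing notes, TopHat2, DESeq2 and TAIR10 were used, with no version or role. Which tool counted reads, and on which strand, is not given in the sources used here. Library denominators and reads per gene were estimated here from low values and TAIR10.1 exon lengths (49.4% to 53.3% of low values came within 0.1 of a whole read). They are approximate, and no count test was run. Samples were grouped by the labels' titles. Whether the replicates are separate plants is not stated in the labels, so the p-values cover only differences among these libraries, possibly technical ones.

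The fit used log2(RPKM + 1), a pseudocount of 1, and the 11463 genes that reached 1 RPKM in 2 or more columns. Changes on this scale understate those of low genes. The phl2 columns were averaged and limma 3.58.1 in R 4.3.3 fitted 3 group means to 5 samples (2 residual degrees of freedom, prior 4.4, variance trend), with two-sided tests, Benjamini-Hochberg adjustment over all tested genes and a threshold of 0.05. Rescaling divided libraries by 0.77 (phl2 sample), 1.36 and 1.22 (WT P-) and 0.99 and 0.83 (WT P+). Errors are standard errors. Promoters and coding sequences were read from TAIR10.1 (RefSeq) with Python 3.11.15 and aligned with Biopython 1.88.

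The members and lists were chosen with earlier results of these data known. Named genes are every called member, the 5 highest and lowest changes per comparison, the 5 highest and lowest levels, the leading copy of families of 3 or more, genes listed at 0, and up to 3 genes per other list with the smallest adjusted p. Further members were named after their values were seen. A few members count in every total but are not reported here by name or drawn singly.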

Additional observations from a re-analysis of the deposited data

How the results depend on the processing

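In WT P- against WT P+, the count of members that rose, 4 after rescaling, was 42 as deposited, 13 with quantile normalization, 2 over genes with no opposite-strand exon (48 members tested), 0 with no filter on low values, 18 at 5 RPKM or more in 2 libraries (35 members tested) and 11 with both phl2 columns as replicates. Over all genes tested, in the same order, 28.0%, 9.47%, 8.52%, 0.603%, 24.4% and 15.4% rose, against 8.1% after rescaling. The 4 genes called after rescaling do not pass the filter at 5 RPKM, so the 18 are other members. Library factors were estimated anew over the genes that each filter kept. RPL14 AT4G27090 moved from -0.30 to -0.12 at 5 RPKM or more. Leaving out each column in turn gave 0 to 5. The count that fell, 0, was 1 with both phl2 columns. The median change of 0.21 was above 0 in every setting run, at 0.62 as deposited, 0.37 with quantile normalization, 0.35 at 5 RPKM or more and 0.14 to 0.21 without 1 column. In phl2 P- against WT P-, the counts of 0 and 0 became 5 higher and 2 lower with both phl2 columns as replicates (12.1% and 8.72% over all genes), and 17 lower as deposited (19.5% over all genes). The median of 0.03 was -0.57 as deposited, -0.17 with quantile normalization, -0.19 at 5 RPKM or more and 0 to 0.09 without 1 column, so its sign depends on the scaling. The deposited counts without 1 column, chosen after seeing the data, ran from 0 to 42 members higher in WT P- (42 with all columns) and from 0 to 34 lower in phl2 P- (17 with all columns). A pseudocount of 0.1 gave 3 members higher in WT P- in place of 4, and otherwise pseudocounts of 0.1 and 0.5 and a fit with no variance trend left these counts as they were and moved the medians by at most 0.04. The cause of these differences was not tested. No paired analysis was possible because each replicate number occurs in 1 group only.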
